A study of Mus musculus with 8 samples.

Results

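Single-exon intergenic loci far from genes were stretches of the mouse genome from which reads of heart RNA had been assembled into 1 unspliced block, outside every annotated gene. A locus belonged to the set when all its transcripts in the deposited annotation carried the class code u, used for an unknown intergenic transcript, and had 1 exon, and when its span lay 10 kb or more from any locus holding a transcript of class =, j or o, which match or overlap a known transcript. Of 35299 loci, 2821 (7.99%) met these conditions, and they made up 38.9% of the 7254 single-exon intergenic loci. The RNA came from hearts of 12-week-old C57BL/6J mice, 4 after a sham operation (Sham) and 4 after myocardial infarction (MI), which is the death of heart muscle after a coronary artery is blocked. Border zone tissue, which in an infarcted heart is the muscle around the scar, was taken 2 weeks after surgery. No genetic change or drug is given for either group, and the labels do not say how the infarct was made. RNA was selected for poly(A) tails and sequenced as long RNA. The comparison asks which RNAs from outside known genes differ between infarcted and sham hearts.

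RNA from outside annotated genes has several known origins. Long intergenic non-coding RNAs are transcribed by RNA polymerase II, and many are spliced and carry poly(A) tails. Active enhancers, the switches that raise transcription of genes at a distance, give rise to short-lived and mostly unspliced RNA, and transcription can run on past the end of a gene. An unspliced block carries no splice site from which a strand could be read, and 2818 of the 2821 loci were listed without a strand. In the heart, intergenic RNAs have been linked to lineage choice and to the response to injury, and many are found in 1 cell type.

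The libraries held 108 to 190.2 M reads in loci, with 165 M or more in each MI library and 161 M or fewer in each Sham library. In the leading principal component of all tested loci the groups parted, and MI replicate 2 lay nearest to Sham (at 34.8, with the remaining MI libraries at 62.4 to 63.2 and Sham at -65.2 to -42.6). Over the tested loci of this set alone, MI replicate 2 again lay nearest to Sham (at 2.57, with the rest of MI at 16.2 to 23.8 and Sham at -22.8 to -7.77). Of 10 heart muscle markers 6 had a locus of their own, and their summed level was 6625477 to 7237615 normalised reads in Sham and 4006327 to 5257720 in MI, with 4 lower in MI. All 6 fibroblast and matrix markers were higher in MI, with sums of 92028 to 136081 in Sham and 475029 to 718385 in MI. All 4 macrophage markers with a locus of their own were higher too, with sums of 9979 to 14569 in Sham and 18409 to 25328 in MI. Neuronal markers (3 genes) summed to at most 10.6 and liver markers (2 genes) to at most 4.12 in any library. Markers of several cell types thus moved with the groups, and their part in the results below was not tested. In bulk tissue, fewer cells of a type and less RNA per cell cannot be told apart. Only the Sham titles carry a remark on reanalysis, and where the libraries came from and what infarction did cannot be told apart. The labels' source field names Sham for all 8 samples, so the groups rest on titles and the treatment field, and all 3 infarct and stress markers were higher in MI (sums of 148053 to 249576 in Sham and 776955 to 1178149 in MI).

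Most of these loci gave few reads. The unit is the normalised read (reads over a size factor that is the same for all loci of a sample), and 1 read was worth 0.663 to 1.58 of them. The median locus had a mean of 6.54 normalised reads over the 8 samples, 81 loci had a mean under 1, 81 reached a mean of 100 and 14 reached 1000. Reads were present in all 8 samples at 1922 loci and in none at 34. In single libraries, 252 to 395 loci had no read in Sham and 124 to 232 in the deeper MI libraries. Where no read was counted, as many as 3 could have been missed, or 3.41 to 4.73 normalised reads in Sham and 1.99 to 2.62 in MI. The exons were 104 to 17160 bases long, with a median of 1132, and the nearest annotated locus was a median of 32.2 kb away. Distances reached 100 kb or more at 636 loci and 1 Mb or more at 10. The set covered 21 chromosomes, with the largest number, 209, on chromosome 12 and 5 on Y.

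With the deposited scaling, more of the loci with enough reads to test were called lower than higher in infarcted hearts. The 934 loci (33.1%) whose mean reached 10 were tested together with all other loci of that level, and the other 1887 were not tested. Of the 934, 73 rose in MI and 167 fell (limma with Benjamini-Hochberg adjustment over 19186 loci, adjusted p under 0.05). Over all 19186 loci the same test called 20.8% higher and 20.1% lower. The share of the intergenic loci called higher, 7.82%, was below that background, and the share called lower, 17.9%, was near it. Changes of 2-fold or more were called for 60 loci upward and 144 downward, against 9.04% and 3.77% of all tested loci. Every MI value lay above every Sham value at 68 tested loci and below at 128, so that the groups were apart at 196 of 934, where 39.6% of all tested loci were apart in either direction and 19.7% with MI above Sham. The median log2 difference, MI minus Sham, was -0.22 against -0.02 for all tested loci. The split depended on the scaling and on which loci were tested. With scaling to the library total, which moved the median of all loci by 0.31, 141 rose and 107 fell. The median log2 difference of the tested loci of this set was then 0.10. With the deposited scaling, 158 rose and 143 fell when all 2821 loci were tested. Without MI replicate 1, 43 rose and 154 fell. The median of these loci lay below that of all loci by 0.21 with the deposited scaling and by 0.19 with total scaling.

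**Figure D1:**
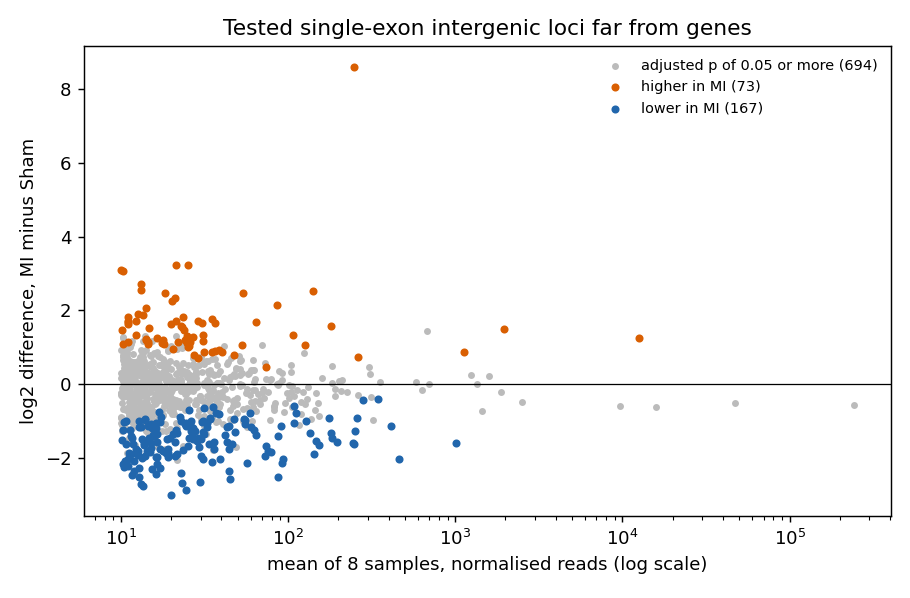
Each point is 1 of the 934 tested loci, with its mean over the 8 samples in normalised reads on a log axis against its log2 difference, MI minus Sham. The 73 loci called higher and the 167 called lower are coloured, and 1 locus, XLOC_016573, stands alone at 8.59.

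Low counts limited the test, so loci were also read beside others of the same level. Of the 486 tested loci with a mean of 10 to under 20, 5.56% rose and 14.2% fell, against 13.7% and 7.12% of all loci at that level. Single-exon intergenic loci under 10 kb from a gene showed 8.34% and 4.05% there. At 20 to under 50, 11.1% of 287 loci rose and 20.9% fell, against 17.5% and 11.6% of all loci and 6.26% and 8.35% of the loci near genes. Between 50 and 200 normalised reads, 7.32% of 123 loci rose and 23.6% fell, against 29.3% and 15.2% of all loci and 8.64% and 10.3% of the loci near genes. At 200 or more, 13.2% of 38 loci rose and 23.7% fell, against 21.2% and 25.1% of all loci. Of the 50 loci near genes at that level, 10 rose and 10 fell. Rises were thus a smaller share than among all loci at each of the 4 levels and falls a larger share at the lower 3. Against loci near genes, the share of rises was higher at 20 to under 50 and lower at the other levels. The share of falls was higher than near genes at all 4 levels. Spliced intergenic loci 10 kb or more from genes, at a higher median level of 59.6, rose in 70 and fell in 211 of 574 cases, with a median log2 difference of -0.41. All these calls used the deposited scaling, and call shares by level were not computed with total scaling. These shares are descriptions, and the differences between classes were not tested.

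One locus was present in every infarcted heart and nearly absent from every sham heart. XLOC_016573 is a block of 2586 bases on chromosome 19 (mm9, 37309611 to 37312196), 10.4 kb from March5, which encodes a ubiquitin ligase of the mitochondrial outer membrane. It stood at 0, 1.14, 0 and 0 normalised reads in Sham replicates 1 to 4 and at 376, 833, 387 and 390.1 in MI replicates 1 to 4. The Sham libraries held 1 read in all and the MI libraries 2496. The groups did not overlap, which was a condition for choosing this locus and the other largest rises described below. MI replicate 2 was the highest, while the other MI libraries lay close together. The pooled ratio of MI to Sham was 1586 with a 95% counting interval of 284 to 62663, which leaves out differences between animals. In the fit the log2 difference was 8.59 ± 0.36 (SE; limma adjusted p = 5.34e-07), and it was called under all 17 alternative settings. Its size depended on the setting, with 9.44 and 6.49 for pseudocounts of 0.5 and 5 in place of 1. It was 10.2 with edgeR and 10.4 with DESeq2. March5 itself differed by -0.20 ± 0.08 and was not called (adjusted p = 0.0858). The next largest rise among called loci off chromosome 18 with groups apart was 3.24.

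A pair of loci beside Klf4 was higher in MI. The 2 blocks lie less than 10 kb apart and may be pieces of a single RNA, so they are not independent of each other. Klf4 encodes a transcription factor of vascular and inflammatory cells. XLOC_023112 (chromosome 4, 55517392 to 55522609, exon of 5218 bases, 17.5 kb from Klf4) stood at 1.19, 2.28, 6.82 and 6.31 in Sham and at 87.5, 25.5, 32.1 and 41.0 in MI. XLOC_023110 (55512344 to 55515144, 24997 bases away) stood at 3.58, 3.42, 0 and 0 in Sham and at 33.8, 10.7, 9.88 and 20.9 in MI. All MI values lay above all Sham values at both loci, which their choice required, and MI replicate 1 was the highest at each. The log2 differences were 3.24 ± 0.51 (limma adjusted p = 6.39e-04) and 3.06 ± 0.65 (adjusted p = 0.00359). Klf4 did not pass the test (0.24 ± 0.27, adjusted p = 0.506).

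Blocks near Abcg2, which encodes a membrane transporter that exports drugs and urate, were more abundant. XLOC_027258 (chromosome 6, 58674536 to 58682800, exon of 8265 bases, 28.5 kb from Abcg2) stood at 43.0, 23.9, 78.4 and 33.1 in Sham and at 276, 179.5, 257 and 243 in MI. As the choice of the locus required, its lowest MI library lay above its highest Sham library, and its log2 difference was 2.51 ± 0.32 (limma adjusted p = 1.81e-04). It was followed along the chromosome by XLOC_027259 (1.81 ± 0.31) and XLOC_027260 (2.48 ± 0.28), both of which rose, and these 3 were all the tested loci of a run of 4 spanning 21.4 kb, which was singled out after its values were seen. Blocks of this run may likewise be pieces of a single RNA and are not independent of each other. Abcg2 did not pass the test (-0.01 ± 0.10, limma adjusted p = 0.938).

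For 3 of the other large rises, the nearest annotated gene, 12.5 to 99.0 kb away, was itself higher. XLOC_001838 (chromosome 1, 172873110 to 172877274), 12.5 kb from Fcgr2b, the inhibitory Fc receptor of immune cells, stood at 0, 4.56, 2.27 and 7.88 in Sham and at 61.6, 42.0, 9.06 and 44.5 in MI. MI replicate 3 was the lowest of its group and just above the Sham range (log2 difference 3.22 ± 0.73, limma adjusted p = 0.00522). Fcgr2b rose by 0.93 ± 0.11. XLOC_014223 (chromosome 17, 14735517 to 14737741), 64.6 kb from Thbs2, a thrombospondin of the extracellular matrix, had 1.19, 0, 3.41 and 1.58 in Sham and 25.8, 13.2, 19.8 and 15.7 in MI. Its log2 difference was 3.09 ± 0.48 (limma adjusted p = 6.26e-04), and Thbs2 rose by 0.82 ± 0.17. XLOC_025269 (chromosome 5, 45665919 to 45668152), 99.0 kb from D5Ertd615e, stood at 5.97, 2.28, 9.09 and 0 in Sham and at 22.5, 15.6, 25.5 and 25.3 in MI. It rose by 2.55 ± 0.63 (limma adjusted p = 0.00855), a call lost when no filter was applied (adjusted p = 0.0505), and D5Ertd615e rose by 1.23 ± 0.37. XLOC_008595 (chromosome 13, 35495307 to 35497277), 138 kb from an annotated locus with no symbol or tested value, had 4.77, 1.14, 3.41 and 1.58 in Sham and 13.9, 19.8, 16.5 and 45.4 in MI, with MI replicate 4 highest (2.70 ± 0.47, adjusted p = 0.00119). Except for XLOC_027258, the 8 largest rises had Sham means under 10, so these loci passed the filter on level through the MI libraries. With a pseudocount of 5 in place of 1, XLOC_014223 rose by 1.85, XLOC_023110 by 1.76 and XLOC_025269 by 1.64, and all were still called.

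**Figure D2:**
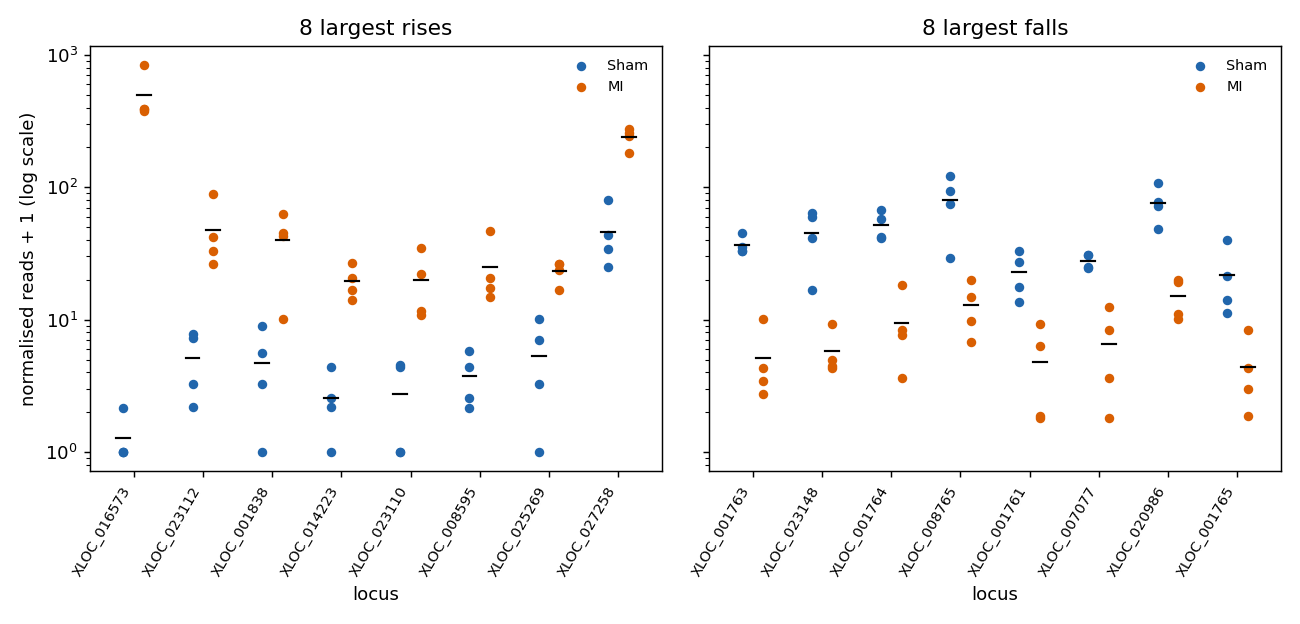
Points are single samples at the 8 loci with the largest rises (left) and the 8 with the largest falls (right), as normalised reads plus 1 on a log axis, with Sham and MI side by side and a bar at each group mean. The loci were chosen off chromosome 18 for groups that do not overlap, and XLOC_016573 goes from 1 read in all Sham libraries to 376 or more normalised reads in each MI library.

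Off chromosome 18, 4 of the 8 largest falls with groups apart lay in 1 stretch of chromosome 1, 402 to 465 kb from any annotated locus. XLOC_001763 (142925747 to 142928624, exon of 2878 bases) stood at 32.2, 34.2, 31.8 and 44.1 in Sham and at 3.31, 9.06, 2.47 and 1.75 in MI. XLOC_001764 (142929086 to 142932021) had 40.6, 66.1, 40.9 and 56.8 in Sham and 6.63, 17.3, 7.41 and 2.62 in MI. MI replicate 2 kept the most at both loci, and no MI value reached the Sham range. Their log2 differences were -3.01 ± 0.41 (limma adjusted p = 2.83e-04) and -2.66 ± 0.44 (adjusted p = 9.27e-04). XLOC_001761 (142912427 to 142914364; -2.52 ± 0.58, adjusted p = 0.00568) belongs to the same run of 4 loci over 19.6 kb, all of them called lower. XLOC_001765 (142975916 to 142977188; -2.35 ± 0.54, adjusted p = 0.00591) lies further along. Loci of the run may be pieces of a single RNA and are not independent of each other. The summed level of the run was 119, 163, 108.0 and 132 in Sham and 15.2, 48.6, 12.4 and 6.98 in MI. The nearest gene, Kcnt2, a sodium-activated potassium channel subunit 402 to 465 kb away, went the other way and rose by 0.87 ± 0.14 (adjusted p = 7.67e-04).

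On other chromosomes the steepest falls differed in their surroundings. XLOC_020986 (chromosome 3, 63213240 to 63214246), 23.3 kb from Mme, which encodes the peptidase neprilysin, stood at 76.4, 70.6, 107 and 47.3 in Sham and at 9.94, 18.9, 9.06 and 18.3 in MI. It fell by 2.35 on the log2 scale (SE 0.33, limma adjusted p = 3.38e-04), and Mme fell by 1.38 (SE 0.11). XLOC_008765 (chromosome 13, 103131029 to 103135475), 348 kb from Cd180, stood at 74.0, 92.2, 28.4 and 119.8 in Sham and at 13.9, 18.9, 5.76 and 8.73 in MI. This locus fell (-2.58 ± 0.47, limma adjusted p = 0.00151), while Cd180, a surface receptor of B cells and myeloid cells, rose by 1.30 ± 0.33. XLOC_023148 (chromosome 4, 75518304 to 75523004), 64.1 kb from Ptprd, which encodes a receptor tyrosine phosphatase, stood at 40.6, 62.6, 59.1 and 15.8 in Sham and at 3.98, 8.24, 3.29 and 3.49 in MI. Sham replicate 4 was low yet above every MI library (-2.89 ± 0.46, adjusted p = 6.88e-04), and Ptprd did not pass the test (0.16 ± 0.11). XLOC_007077 (chromosome 12, 16111727 to 16114152) had 29.8, 23.9, 29.6 and 23.7 in Sham and 7.29, 11.5, 0.824 and 2.62 in MI (-2.43 ± 0.54, adjusted p = 0.00481). Except for XLOC_008765 and XLOC_020986, the 8 largest falls had MI means under 10, so these loci passed the filter through the Sham libraries. With a pseudocount of 5, XLOC_001761 was at -1.64 and XLOC_001765 at -1.55, both still called.

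Of the 3 most abundant loci called higher off chromosome 18, 1 had groups apart. XLOC_010051 (chromosome 14, 32928486 to 32935983, exon of 7498 bases), 10032 bases from Oxnad1, was the most abundant locus off chromosome 18 called in either direction. It stood at 5313, 6980, 9709 and 7606 in Sham and at 15889, 18737, 12264 and 23617 in MI, so that even the lowest MI library exceeded all Sham libraries. It rose by 1.24 ± 0.21 (limma adjusted p = 9.57e-04), 2.38 times the Sham mean, while Oxnad1, an oxidoreductase-domain gene, fell by 0.36 (SE 0.09, adjusted p = 0.00855). XLOC_008640 (chromosome 13, 55285633 to 55290696), 15.5 kb from Fgfr4, stood at 538, 905, 2300 and 697 in Sham and at 1463, 3568, 3748 and 2509 in MI. Sham replicate 3 overlapped the MI range (1.49 ± 0.42, adjusted p = 0.0163), and the call ended when loci of any level were tested (adjusted p = 0.0993). XLOC_025355 (chromosome 5, 92972001 to 92980812), 19.8 kb from Fam47e, stood at 534, 1014, 1173 and 575 in Sham and at 1047, 1745, 1261 and 1739 in MI, with MI replicate 1 inside the Sham range. Its rise (0.86 ± 0.26, adjusted p = 0.0238) was no longer called without Sham replicate 1 (0.68), Sham replicate 4 (0.72), MI replicate 2 (0.76) or MI replicate 4 (0.76), or when loci of any level were tested (adjusted p = 0.116).

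Among abundant loci off chromosome 18 that fell, XLOC_027358 (chromosome 6, 108881828 to 108885332, exon of 3505 bases) led. It stood at 1286, 1961, 1149 and 1676 in Sham and at 428, 639, 568 and 359 in MI, with no overlap, and fell by 1.61 on the log2 scale (SE 0.21, limma adjusted p = 2.09e-04). Edem1, which acts in the disposal of misfolded proteins and lies 69.8 kb away, rose by 0.71 ± 0.07 (adjusted p = 5.20e-05). XLOC_014225 (chromosome 17, 15402763 to 15413989), one of the longer blocks at 11227 bases, stood at 517, 624, 538 and 572 in Sham and at 297, 357, 221 and 175 in MI (-1.15 ± 0.20, adjusted p = 0.00117). XLOC_007212 (chromosome 12, 71765176 to 71775665), 138 kb from Frmd6, varied widely within both groups, with 255, 1346, 456 and 879.8 in Sham and 143, 436, 124 and 61.1 in MI. The groups overlapped, and its fall (-2.04 ± 0.60, adjusted p = 0.0195) was lost without Sham replicate 2 (-1.66), Sham replicate 4 (-1.86) or MI replicate 4 (-1.62), or when loci of any level were tested (adjusted p = 0.110).

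Within the set, the share of loci called lower was larger at 50 kb or more from annotated loci than nearer. Of 267 tested loci 10 to under 20 kb from an annotated locus, 24 rose and 34 fell (12.7%). At 20 to under 50 kb 25 rose and 43 fell of 321 (13.4%), and at 50 to under 100 kb 7 rose and 34 fell of 132 (25.8%). At 100 kb or more 17 rose and 56 fell of 214 (26.2%). The median log2 differences over these 4 ranges were -0.05, -0.16, -0.36 and -0.57. With total scaling they were 0.27, 0.15, -0.03 and -0.26, so the order stayed and the signs of the nearer ranges changed. Median levels were alike in the 4 ranges (19.2, 18.4, 19.9 and 19.6 normalised reads), and so were median exon lengths (2315, 2181, 2101.5 and 2050 bases). Of all tested loci, 20.8% rose and 20.1% fell. The share of falls lay below 20.1% under 50 kb and above it from 50 kb on. The share of rises lay below 20.8% in all 4 ranges. Call shares by distance were not computed with total scaling, and neighbouring loci, which may be pieces of 1 RNA, were counted singly. The relation to distance is a description of these libraries and was not tested.

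**Figure D3:**
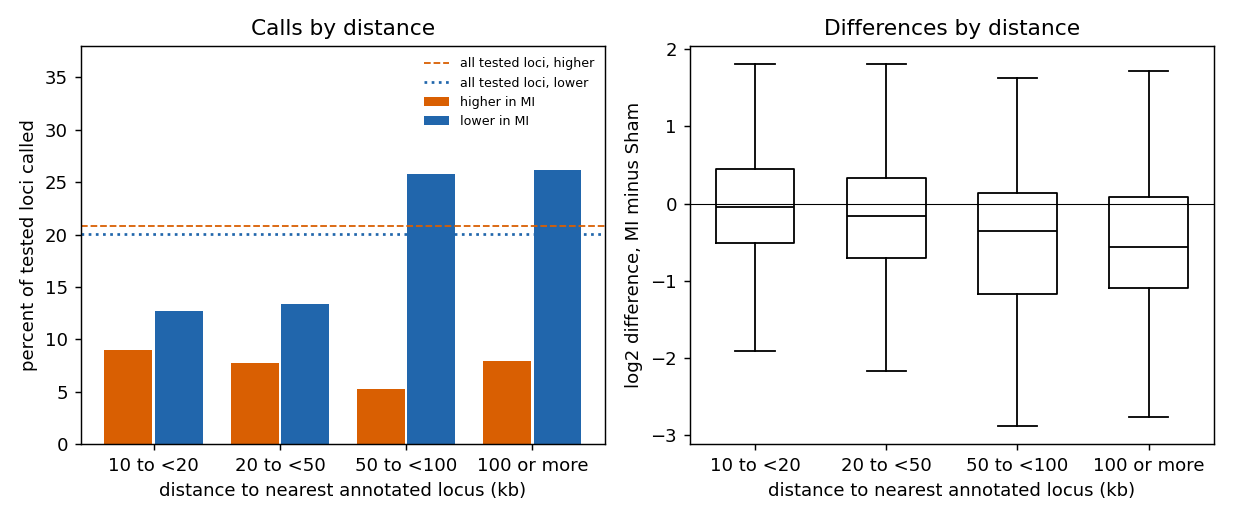
Left, the percent of tested loci called higher and lower in MI for 4 ranges of distance to the nearest annotated locus, with dashed and dotted lines at the shares among all tested loci. Right, boxes of the log2 differences (median, quartiles and whiskers to 1.5 times the interquartile range, points beyond not drawn). The share called lower goes from 12.7% in the nearest range to 26.2% in the farthest.

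Loci and their nearest annotated loci were in part called in the same direction. Of the 73 loci that rose, 53 had a nearest annotated locus that was tested: it rose at 18 (34.0%), fell at 3 (5.66%) and was not called at 32. Of the 167 that fell, 128 had a tested neighbour, which fell at 58 (45.3%), rose at 27 (21.1%) and was not called at 43. Of all tested annotated loci, 23.7% rose and 20.96% fell, and the difference from these shares was not tested. Over 725 tested loci with a tested neighbour, the log2 differences of locus and neighbour had a Spearman rho of 0.26. It was 0.31, 0.29 and 0.30 in the 3 ranges under 100 kb and 0.15 at 100 kb or more (235, 261, 97 and 132 pairs). The pairs share libraries and often a neighbour, and these coefficients are given as descriptions only.

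Many of these loci lay close together in runs. Joined wherever the gap was under 10 kb, the 2821 loci formed 1561 runs, of which 597 held 2 or more loci and 1857 loci in all. Neighbours in a run may be pieces of 1 RNA, so they are not independent of each other. In 186 runs with 2 or more tested loci, all tested loci were lower in MI in 103, all were higher in 39, and both directions occurred in 44. These are signs under the deposited scaling, with loci that were not called included. Total scaling moved the median log2 difference of the tested loci from -0.22 to 0.10, and the signs were not counted again with it. Runs of other loci were not formed for comparison. Called loci lay in 177 runs, 65 with rises and 112 with falls, and in none did called rises and falls occur together. As there were 240 called loci, most of these runs held a single one and could not hold both directions. The largest run, on chromosome 12 (16067765 to 16122938, 55.2 kb), held 20 loci, of which 6 were tested, all lower and 4 called. Several runs tied with 6 tested loci, and the larger are given. The most abundant locus of this one, XLOC_007066 (16073819 to 16078305), stood at 40.6, 96.8, 43.2 and 64.6 in Sham and at 35.8, 34.6, 18.1 and 19.2 in MI (-1.14 ± 0.34, limma adjusted p = 0.0218). That call was lost without Sham replicate 2 (-0.89), Sham replicate 4 (-1.08), MI replicate 3 (-0.98) or MI replicate 4 (-1.003), without the filter on level, and with total scaling (-0.84). XLOC_007077, among the largest falls, belongs to the same run.

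A run of 11 loci on chromosome 12 (78074282 to 78114231, 40.0 kb), starting 10.9 kb from Max, the partner of Myc transcription factors, had 6 tested loci, all lower and 2 called. Its most abundant locus, XLOC_007264, stood at 64.5, 159, 161 and 148 in Sham and at 12.6, 97.2, 46.9 and 2.62 in MI. MI replicate 2 exceeded Sham replicate 1, so the groups overlapped, and MI replicate 4 was nearly empty. The fall (-2.53 ± 0.84, limma adjusted p = 0.034) was not called by edgeR (-1.72) or DESeq2 (-1.74), with total scaling (-2.23), when loci of any level were tested, or without Sham replicate 2 (-2.41), 3 (-2.40) or 4 (-2.45) or MI replicate 1 (-2.30) or 4 (-1.66). Max fell by 0.39 (SE 0.11, adjusted p = 0.0171). Run sums were 130.1, 672, 344 and 541 in Sham and 56.3, 349, 148 and 23.6 in MI.

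The run with the most tested loci, 9 of 12 on chromosome 17 (46985898 to 47017442, 31.5 kb), held no called locus. Its 9 log2 differences lay between 0.01 and 0.80, and none was called. XLOC_014393 (46988144 to 46994769), its main block, stood at 972, 1428, 1329 and 1703 in Sham and at 1563, 1281, 1246 and 1282 in MI (0.01 ± 0.15, limma adjusted p = 0.977). Bicral, a subunit of a chromatin remodelling complex 18.9 kb from this block, was likewise not called (-0.03 ± 0.08). XLOC_027358, described above, belonged to a run of 9 loci in which all 6 tested loci fell, by 1.39 to 1.99 on the log2 scale. In a further run, on chromosome 9 (92098260 to 92120056), all 6 tested loci fell as well, with log2 differences of -2.48 to -1.42. These last runs were singled out after their values were seen.

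**Figure D4:**
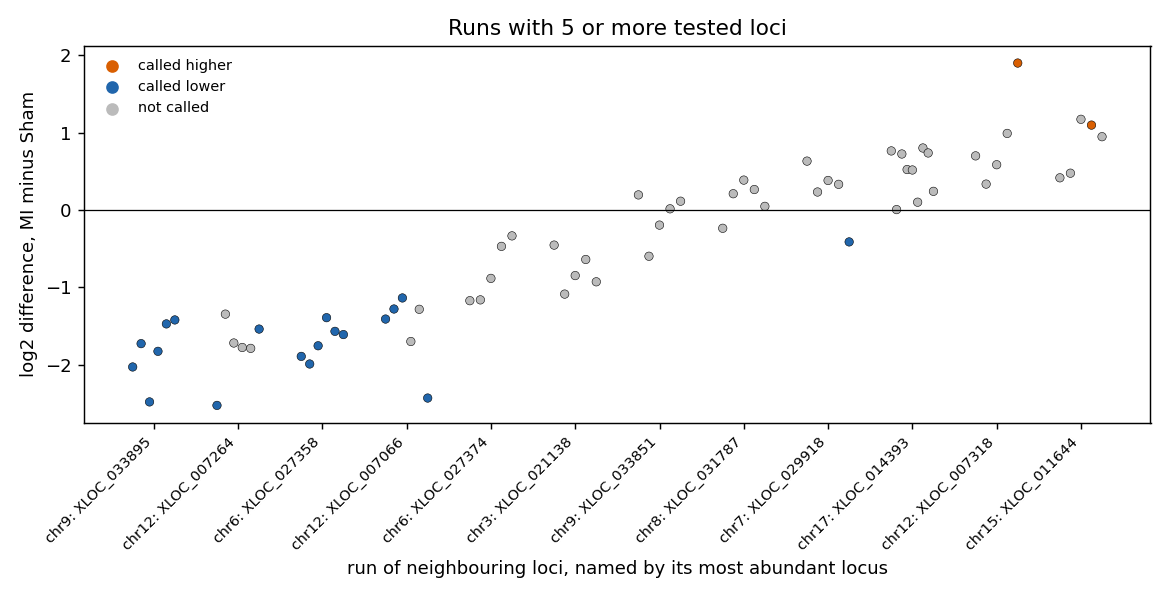
Each column is a run with 5 or more tested loci off chromosome 18, labelled with its chromosome and most abundant locus, and each point is the log2 difference, MI minus Sham, of 1 tested locus. In the runs of XLOC_033895 and XLOC_027358 all 6 tested loci were called lower, and in the run of XLOC_014393 none of 9 was called.

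A handful of loci gave most of the signal of the set, and none of those named here passed the test between groups. Per kb of exon, the 6 highest loci off chromosome 18 were XLOC_020855, XLOC_014367, XLOC_027117, XLOC_008506, XLOC_001679 and XLOC_031547, with 105144, 41538, 17591, 10495, 9699 and 1749 normalised reads per kb. A locus of chromosome 18 in their range was counted with the rest and not named. The 6 held 63.7 to 89.0% of the summed level of all 2821 loci. XLOC_014367 (chromosome 17, 39979941 to 39985776, exon of 5836 bases), the most abundant of all, stood at 436475, 177901, 161196 and 388625 in Sham and at 98533, 273661, 144922 and 258003 in MI. Sham replicates 1 and 4 and MI replicates 2 and 4 were high, and the groups overlapped (-0.57 ± 0.39, limma adjusted p = 0.276). Whether this block is a copy of a multi-copy sequence such as the ribosomal RNA genes was not analysed here, so its level and its share of the sum may not be those of an intergenic RNA. XLOC_027117 (chromosome 6, 3150767 to 3151670) was high in the same 4 libraries, with 27100, 12284, 11066 and 26677 in Sham and 6205, 18127, 9347 and 16414 in MI. Whether XLOC_027117 or the other loci of the 6 are copies of a multi-copy sequence was not analysed either. XLOC_020855 (chromosome 3, 5860333 to 5860778) reached 110263 in Sham replicate 4, against 32950 to 48397 in the other Sham libraries and 23509 to 54020 in MI.

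The short blocks XLOC_008506 (238 bases, chromosome 13, 9833542 to 9833779) and XLOC_001679 (150 bases, chromosome 1, 104524766 to 104524915) were also highest in Sham replicate 4, at 5933 and 2952. In each of these 5 loci MI replicate 1 was the lowest of all libraries, which were made from poly(A)-selected RNA. None was called; the nearest to the threshold was XLOC_001679 (-0.74 ± 0.28, limma adjusted p = 0.0544), which passed without Sham replicate 2 (-0.88) or MI replicate 2 (-0.93) and with the replicate number as a block. XLOC_031547 (chromosome 8, 4089001 to 4089910), 12.9 kb from Cd209f, did not follow this pattern. It stood at 1506, 1424, 1621 and 1337 in Sham and at 1610, 1720, 1789 and 1724 in MI, with Sham replicate 3 just above MI replicate 1. The difference of 0.22 ± 0.08 (limma adjusted p = 0.0546) passed with TMM scaling (0.24), total scaling (0.53), edgeR (0.24) and DESeq2 (0.23) and without Sham replicate 3 (0.27). The summed level of all 2821 loci was 447652 ± 175766 in Sham and 324438 ± 113303 in MI (mean ± SD, n = 4 each). Of these means, XLOC_014367 alone made up 291049 in Sham and 193780 in MI. Without the 6 loci the summed level was 74501 ± 8376 and 76078 ± 9053, a difference smaller than the spread within either group.

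**Figure D5:**
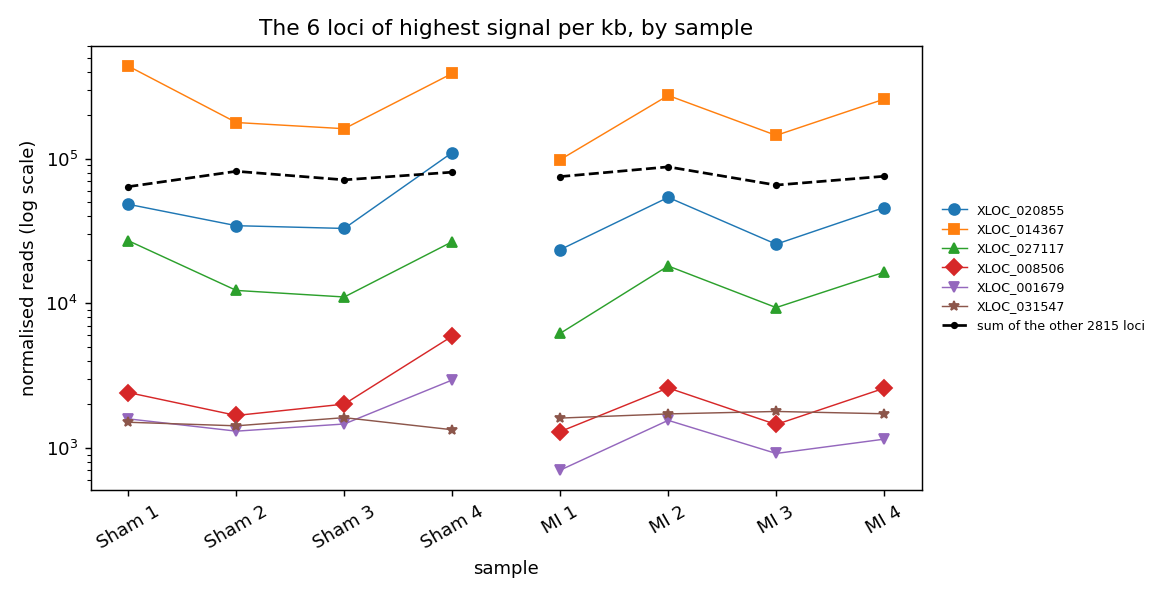
Normalised reads on a log axis in each of the 8 samples for the 6 loci of highest signal per kb off chromosome 18, with the sum of the other 2815 loci as a dashed line. Lines within a group only guide the eye. The largest 5 loci other than XLOC_031547 are lowest in MI replicate 1, and the dashed sum stays between 64066 and 87794.

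Of the 3 longest blocks off chromosome 18, 1 fell and 2 did not pass the test. XLOC_027287 (chromosome 6, 84175061 to 84192220), at 17160 bases the longest exon, lies 10.4 kb from Dysf, which encodes dysferlin, a protein of muscle membrane repair. It stood at 94.3, 732, 286 and 623 in Sham and at 151, 486, 138 and 79.4 in MI, with wide overlap (-0.98 ± 0.66, limma adjusted p = 0.263). It passed only without Sham replicate 1 (-1.58). XLOC_020943 (chromosome 3, 41586145 to 41600809, 14665 bases), 23.3 kb from D3Ertd751e, had 306, 403, 337 and 355 in Sham and 176, 212, 126 and 92.5 in MI. It fell without overlap (-1.26 ± 0.23, adjusted p = 0.00167), and D3Ertd751e fell too (-0.59 ± 0.08). XLOC_005627 (chromosome 11, 5387904 to 5399231, 11328 bases), 21.1 kb from Xbp1, a transcription factor of the unfolded protein response, stood at 160.0, 225, 133 and 202 in Sham and at 251, 189, 160 and 138 in MI. It did not pass the test (0.03 ± 0.22, adjusted p = 0.934).

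At the limit of 10 kb the loci on either side were small. Just inside lay XLOC_008679 (chromosome 13, 67343132 to 67345852), with means of 32.4 ± 8.12 in Sham and 39.3 ± 9.27 in MI, and XLOC_021216 (chromosome 3, 150974188 to 150976172), with 6.71 ± 5.16 and 10.8 ± 2.97 (SD, n = 4 each). Just outside lay XLOC_030138 (chromosome 7, 112616196 to 112616705), with 1.46 ± 1.77 and 3.24 ± 3.21, and XLOC_008718 (chromosome 13, 75919780 to 75921024), with 4.40 ± 2.96 and 9.04 ± 5.02.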

How the data were processed

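Poly(A)-selected RNA of 8 hearts (4 Sham, 4 MI, groups from the sample titles) was sequenced. The source and description fields of some samples conflict with the titles. The submitters' processing notes name TopHat2 2.0.5, Cufflinks 2.0.2, HTSeq 0.5.4p2, DESeq and build mm9, without roles or settings. In the authors' table each locus has a size-factor-scaled signal in every sample, and these deposited values were all whole multiples of 1 step per sample (within a relative tolerance of 1e-06), so reads were recovered. Coordinates are 1-based, from the deposited mm9 annotation. Distance is the difference between facing ends of 2 spans. Of 20506 annotated spliced loci, 17922 (87.4%) were named by exon and intron lengths equal to those of 1 GENCODE M21 gene; no coordinate was carried over.

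The main test was limma 3.58.1 with trend (R 4.3.3) on log2(signal + 1), 2-sided, over 19186 loci with a mean of at least 10, Benjamini-Hochberg threshold 0.05. Log2 differences are on this scale, which understates changes of low loci, and ± beside them is the standard error. The fit was tested on simulated data. Alternatives were edgeR 4.0.16, DESeq2 1.42.0, other scalings, pseudocounts, filters, distance limits, a replicate block and leaving out each library. Named loci were the 8 largest rises and 8 largest falls with groups apart, the 3 most abundant calls each way, the 6 highest per kb, the 3 longest exons, those at the 10 kb limit and the top locus of the 3 runs with most tested loci; chromosome 18 was counted and not named. The members and lists were chosen with earlier results of these data known. The design text calls the replicates biological. Within groups, counts of library pairs differed beyond sampling noise (chi-square over its degrees of freedom, 27.2 to 115). Counting intervals and floors cover counting error only.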

Additional observations from a re-analysis of the deposited data

Results flagged for a closer look

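Among 76 groups of 4 values checked, in 7 the highest or lowest library stood apart from the other 3. The gap passed Dixon's 95% limit, which is a share of the group's range. Chance passes it in about 1 of 20 groups of normally distributed values, and this rate need not hold for low counts. At XLOC_016573 this was Sham replicate 2, with the only Sham read (1.14 normalised reads), and MI replicate 2, at 833. As the remaining Sham libraries held no read there, a single read was bound to be flagged. MI replicate 2 was also apart at XLOC_023148, at 8.24. At XLOC_008679, just inside the distance limit, Sham replicate 2 (44.4) and MI replicate 1 (53.0) stood apart. XLOC_014393 was high in MI replicate 1, at 1563, and XLOC_007264 low in Sham replicate 1, at 64.5.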

How the results depend on the processing

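Some settings moved the count of 73 rises or that of 167 falls by over 1.5 times. Rises outnumbered falls without a filter on low values and with total scaling. Without a filter on low values 158 loci rose (143 fell), with a mean of at least 20 there were 46 rises and 99 falls among 448 tested, and with total scaling 141 rises and 107 falls. A distance of 50 kb or more left 24 rises and 90 falls among 346 tested. Leaving out 1 library gave 43 to 73 rises and 115 to 198 falls. The fewest rises, without MI replicate 1, were also a move of over 1.5 times. With edgeR there were 79 and 156, with DESeq2 76 and 155. With the replicate number as a block there were 77 rises and 194 falls; deviations of same-numbered libraries had correlations of 0.15, 0.27, 0.16 and -0.0009. One pair was under the 0.1 asked of every pair, and Sham replicate 1 correlated more with MI replicate 4 (0.28) than with its own number, so the numbers were not taken as pairs. The summed level without the 6 loci of highest signal per kb was 74501 in Sham and 76078 in MI, and 65538 and 66536 over tested loci without them (both chosen after seeing the data). The summed level of all 2821 loci, 447652 in Sham and 324438 in MI, was 391374 to 502961 and 286091 to 363562 when 1 library was left out. Of 25 named calls 19 held under every alternative that could test them, and no named value that was called changed sign. Depth limits the 1887 loci under the filter.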
